A study of Mus musculus with 25 samples.

Results

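Cytoplasmic ribosomal protein genes and the pseudogenes named after them were followed in cells sorted as neurons from the mouse sensorimotor cortex after spinal cord injury (SCI), with and without deletion of the transcriptional repressor REST. Members were chosen by gene symbol alone, as every row named Rpl or Rps followed by a number, Rplp followed by a number, or Rpsa, without the Rps6k kinases. This took 129 of the 9931 genes with a symbol, 84 without and 45 with "-ps" in the name. The 84 comprise 43 proteins of the large subunit, 31 of the small subunit, the 3 stalk proteins and 7 paralogues or retrocopies. All 129 were found in the GENCODE annotation of GRCm38. Of the 45 -ps rows it lists 41 as processed pseudogenes, 2 as transcribed processed pseudogenes and 2 (Rpl10-ps3 and Rps12-ps3) as protein coding, and the 33 parent genes they are named after were all measured.

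The cytoplasmic ribosome is built from a large and a small subunit, each made of ribosomal RNA and many small basic proteins that are nearly all required for its assembly. The messages for these proteins are among the most abundant in most cells, are short, and start with a pyrimidine tract through which growth signals adjust their translation. Abundant short messages are also the ones most often copied back into the genome by retrotransposition, so each ribosomal protein gene has intronless copies that can be nearly identical to its exons, and a sequencing read from a shared stretch may be placed on either. Protein synthesis in neurons, including local synthesis in axons, is part of the response to axon injury.

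The mice were REST flx/flx; STOP flx/flx TdTomato on a C57BL/6 background, between 4 and 6 weeks old and of both sexes, and all groups, controls included, carried these alleles. WT animals received AAV-Syn-GFP and REST cKO animals AAV-Syn-Cre in the cortex, so the 2 arms also differ in the virus and in the reporter named in the library titles (GFP or tdTomato). Both viruses carry the human synapsin promoter, which is active in neurons. Neurons were sorted from animals with a sham operation or with a crush of the spinal cord at T10 at 1, 3 or 7 days after injury, and QuantSeq libraries, which read the 3′ end of each message, were made from each sample. There were 4 WT sham libraries, 3 WT SCI libraries at each of days 1, 3 and 7, 3 REST cKO sham libraries, and 2, 4 and 3 REST cKO SCI libraries at days 1, 3 and 7. The 3 WT SCI day 7 libraries were all from females, and the 3 REST cKO sham and 3 REST cKO SCI day 7 libraries all from males. The study counts mice as the replicates of these data, but the labels do not tie a library to an animal, so p-values measure the spread between libraries.

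Values are the deposited log2 normalized counts, which lie between -4.82 and 5.16 in the table and hold no read totals, so the depth is unknown. Rest lay between -1.55 and 2.88 in the 13 WT libraries and between -2.65 and -0.04 in the 12 REST cKO libraries, and the sham groups overlapped. The median of all genes was 0.51 to 1.47 per library. WT SCI day 3 replicate 5 stood apart, with 29.5% of its values under -2 against 2.77% to 17% in the other 24 libraries. The summed level of the 6 microglial markers ran from log2 5.36 to 6.21 over the 25 libraries and that of the 7 neuronal markers from 3.20 to 5.38. In 25 of the 25 libraries the microglial sum was the higher, by 0.08 to 2.73 log2 units, which goes against the label of sorted neurons. The 2 sums are over different genes and do not give shares of cells, so the values below are those of the sorted samples. Of the 5 markers of excitatory and corticospinal neurons 2, Fezf2 and Crym, were not in the table. In a bulk sample fewer cells of a type and less RNA per cell cannot be told apart.

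The sequences below show how alike a parent and its pseudogene can be. They are coding stretches, and whether reads of these 3′ libraries fell in them was not tested. They were read from GRCm38, 5′ to 3′ on the coding strand, and capitals mark the bases at which the pseudogene differs from its parent. Rpl3, a large subunit protein near the peptidyl transferase centre, lies on chromosome 15, and its processed pseudogene Rpl3-ps1 is a single exon of 1210 bases at chrX:13202571-13203780 on the plus strand that overlaps no other annotated gene. Over all 1210 bases the copy has 2 mismatches to the Rpl3 transcript (99.8% identity), C57A and T786C, counted from the A of the Rpl3 start codon. They stand in these 2 stretches, from exons 2 and 6 of Rpl3 (chr15:80082509-80082549 and chr15:80079733-80079773, minus strand) and from chrX:13202608-13202648 and chrX:13203337-13203377.
Rpl3, exon 2: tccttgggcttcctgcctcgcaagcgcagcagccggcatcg
Rpl3-ps1: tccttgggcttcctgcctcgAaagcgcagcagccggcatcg
Rpl3, exon 6: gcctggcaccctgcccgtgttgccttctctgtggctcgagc
Rpl3-ps1: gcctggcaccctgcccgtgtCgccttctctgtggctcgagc

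Rps12, a small subunit protein, has 2 measured copies. Rps12-ps3 on chromosome 19, inside an intron of Pdzd8 on the opposite strand, has no mismatch to Rps12 over its 494 bases, and Rps12-ps10 on chromosome 2 has 4 mismatches over 399 bases. The stretch shown is from exon 3 of Rps12 (chr10:23786776-23786830, minus strand), chr19:59322435-59322489 (plus) and chr2:122220057-122220111 (plus), with C75A and G109A in Rps12-ps10.
Rps12: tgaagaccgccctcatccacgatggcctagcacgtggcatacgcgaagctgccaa
Rps12-ps3: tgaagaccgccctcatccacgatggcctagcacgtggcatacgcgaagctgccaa
Rps12-ps10: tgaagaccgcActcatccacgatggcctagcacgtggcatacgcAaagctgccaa

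Rpl23a, a large subunit protein, and its processed pseudogene Rpl23a-ps3 differ at 1 base of 468 (A116T), shown from exon 2 of Rpl23a (chr11:78182876-78182916, minus) and chr14:34170750-34170790 (plus). The Rpl31 family shows how far the copies of 1 gene can range. Over the same 61 bases of exon 3 of Rpl31 (chr1:39370037-39370097, plus) the copy Rpl31-ps8 (chr15:90764466-90764526, minus) is identical and Rpl31-ps24 (chr1:64934533-64934593, plus) differs at 7 bases.
Rpl23a: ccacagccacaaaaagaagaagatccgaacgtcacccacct
Rpl23a-ps3: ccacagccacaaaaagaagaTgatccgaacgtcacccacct
Rpl31: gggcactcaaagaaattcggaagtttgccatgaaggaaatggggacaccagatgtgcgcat
Rpl31-ps8: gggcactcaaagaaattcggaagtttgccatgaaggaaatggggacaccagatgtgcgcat
Rpl31-ps24: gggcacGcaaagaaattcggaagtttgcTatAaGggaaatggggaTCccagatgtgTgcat

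Across the 45 copies the identity to the parent over the aligned bases ran from 90.3% (Rpl31-ps24) to 100%, with a median of 99.1%. The 11 identical copies were Rpl10-ps3, Rpl10a-ps1, Rpl15-ps3, Rpl27-ps3, Rpl28-ps1, Rpl31-ps8, Rpl36a-ps2, Rps6-ps4, Rps12-ps3, Rps16-ps2 and Rps23-ps1. A further 12 were at least 99% identical, namely Rpl3-ps1, Rpl17-ps8, Rpl17-ps9, Rpl17-ps10, Rpl19-ps11, Rpl23a-ps3, Rpl30-ps1, Rpl36-ps12, Rpl39-ps, Rps2-ps10, Rps13-ps1 and Rps26-ps1, and the other 22 were under 99%. For 10 copies every stretch of 50 bases also occurs in the parent transcript. Of the 45, 19 overlap another annotated gene, 8 of them on the same strand, of which 7 lie in an intron of the host and 1, Rpl19-ps11, over an exon, so reads of the host and of the copy could not be told apart in those 8.

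Of the 129 members, 1 passed the test in any of the 12 comparisons, and it was the pseudogene Rpl3-ps1. Each gene was fitted with limma, with a mean for each group and the 2 sequencing components, and called at a Benjamini-Hochberg adjusted p under 0.1 over all 9931 genes. In the 4 WT sham libraries Rpl3-ps1 stood at 2.32, 2.81, 3.15 and 2.79, and in the 3 REST cKO sham libraries at -3.18, 0.46 and -0.65. The sham groups did not overlap, as in 399 of all 9931 genes that were higher in REST cKO and 382 that were lower. The REST cKO values were spread over more than 3 log2 units. The fitted difference, REST cKO minus WT, was -5.19 (SE 0.97, limma adjusted p = 0.051), where 0.0302% of all genes were called. Without the components the difference was -3.89 and Rpl3-ps1 was no longer called (limma adjusted p = 0.20).

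Within REST cKO, Rpl3-ps1 stood at -0.45 and 2.53 in the 2 libraries at day 1, at 2.28, 2.44, 3.36 and 2.84 in the 4 at day 3, and at 2.30, -0.05 and 2.54 in the 3 at day 7. The day 3 libraries all lay above the 3 sham libraries, and the day 1 group overlapped them in range with 1 of its 2 libraries. Rpl3-ps1 rose by day 3 (log2 difference 4.94, SE 0.93, limma adjusted p = 0.083), where 0.0201% of all genes were called. The call was lost without the components (3.85, limma adjusted p = 0.34) and with a term for batch (5.04, adjusted p = 0.13). At day 1 the difference from sham was 2.35 (adjusted p = 0.92) and at day 7 it was 3.53 (adjusted p = 0.53), neither past the threshold. These comparisons and the one between sham groups share the 3 REST cKO sham libraries.

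In the other WT groups Rpl3-ps1 stood at 2.57, 2.43 and -1.14 at day 1, at 3.13, 3.46 and 2.61 at day 3, and at 2.71, -0.23 and 3.38 at day 7. Low values therefore also occurred in single WT libraries. Over all 25 libraries 7 lay at or under 0.46 and 18 at or above 2.28, with none between. The interaction of genotype and injury was 5.78 at day 3 (SE 1.47, limma adjusted p = 0.88) and 4.90 at day 7 (SE 1.36, adjusted p = 0.45), so a difference between genotypes in the response to injury was not shown.

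**Figure D1:**
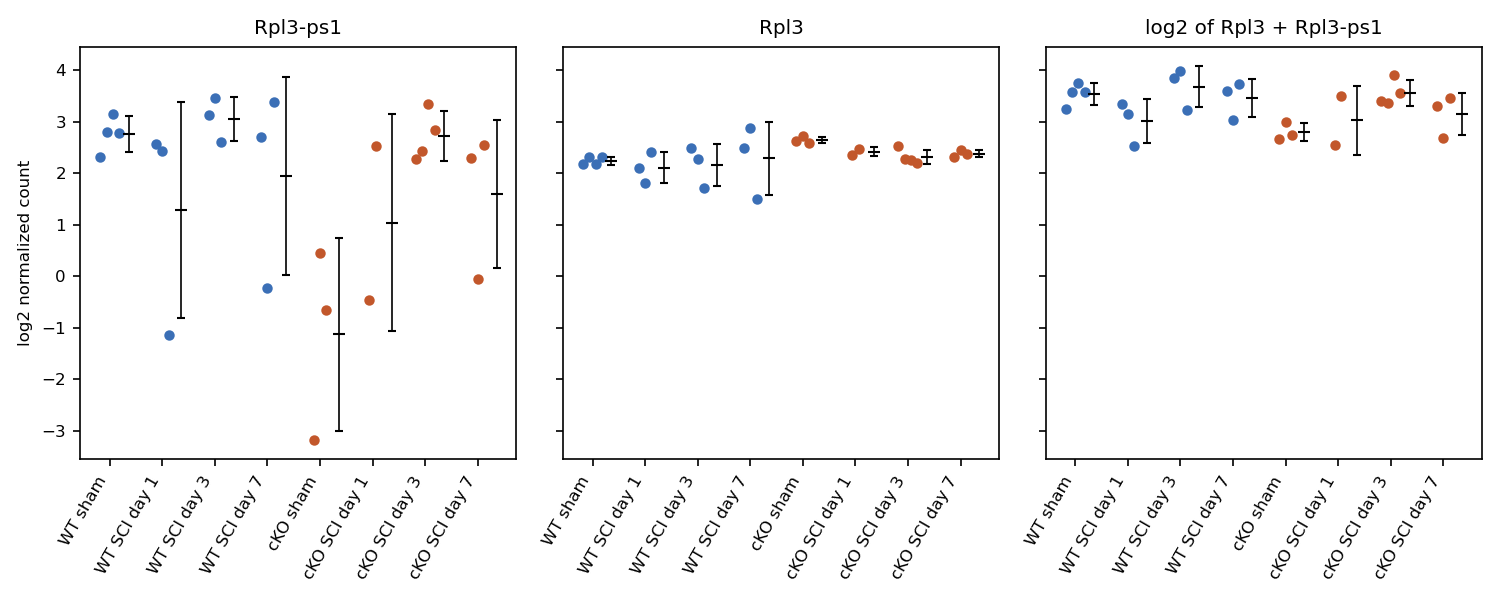
Log2 normalized count of Rpl3-ps1, of Rpl3 and of their sum in each library (points, y axis), by group (x axis), WT in blue and REST cKO in orange, with bars at the group mean ± SD. Rpl3-ps1 lies between -3.18 and 0.46 in the 3 REST cKO sham libraries and between 2.32 and 3.15 in the 4 WT sham libraries, while Rpl3 spans 1.50 to 2.88 over all libraries.

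The parent gene Rpl3 was not called. Its sham values were 2.18, 2.32, 2.19 and 2.31 in WT and 2.64, 2.72 and 2.59 in REST cKO, so here too the sham groups did not overlap, in the opposite direction. The fitted Rpl3 difference was 0.61 (SE 0.33, limma adjusted p = 0.76). The deposited values of Rpl3 and Rpl3-ps1 were also added on the linear scale before the fit. They had been corrected beforehand, so the sum is not a read total. The summed row differed by -0.92 between sham groups (SE 0.29, limma adjusted p = 0.49) and by 0.91 between day 3 and sham in REST cKO (SE 0.27, adjusted p = 0.74), and was not called. Within the batches given in the labels, which do not say what a batch is, the plain Rpl3-ps1 difference between sham groups was -5.75 in batch 1 and -2.51 in batch 2, with no WT sham library in batch 3. The day 3 minus sham difference in REST cKO was 5.46, 2.44 and 3.49 in batches 1, 2 and 3.

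Both Rpl3-ps1 calls depended on single libraries and settings. Without REST cKO sham replicate 6, the library at -3.18, the sham difference of Rpl3-ps1 was -4.24 (adjusted p = 0.56) and the day 3 difference in REST cKO 4.05 (adjusted p = 0.78). The sham call was also lost without WT sham replicate 3, 10, 14 or 17 (Rpl3-ps1 differences -5.40 to -5.07, adjusted p = 0.12 to 0.22), and the day 3 call without REST cKO sham replicate 18 or any 1 of the 4 day 3 libraries (4.78 to 5.17, adjusted p = 0.10 to 0.53). All 3 REST cKO sham libraries came from males. With a term for sex the sham difference was -5.62 (adjusted p = 0.076) and the day 3 difference 5.58, adjusted p = 0.105, the latter no longer past the threshold.

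Some marker sums also differed between the sham groups. The summed astrocyte markers (3 of 5 in the table, Gfap and Aqp4 being absent) were at log2 2.46 to 3.03 in WT sham and 3.50 to 4.30 in REST cKO sham, and the 7 neuronal markers at 3.20 to 4.52 and 4.88 to 5.38. The 6 microglial markers were at 5.77 to 6.03 and 5.36 to 5.92, the 4 endothelial markers at 4.10 to 4.51 and 4.30 to 4.98, and the 5 oligodendrocyte markers at 2.35 to 3.20 and 2.76 to 3.32. Sums of the excitatory and corticospinal markers were at 2.29 to 3.00 and 2.92 to 3.14, and of the inhibitory markers at 0.10 to 2.86 and 0.81 to 2.99. Of these lists only the neuronal and astrocyte sums did not overlap between the sham groups. Their part in the values of the ribosomal protein genes was not tested.

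Among the 84 members without -ps, none was called in any comparison. Between sham groups 66 of the 84 were lower in REST cKO, with a median log2 difference of -0.16 against 0.04 for all genes. The 31 small subunit genes had a median of -0.24 with 26 below 0, the 43 large subunit genes -0.13 with 32 below 0, and the 3 stalk genes -0.20 with 2 below 0. The library medians of the 84 were 2.82 to 2.91 in WT sham and 2.72 to 2.78 in REST cKO sham and did not overlap. Within batch 1 the medians differed by -0.09 and within batch 2 by -0.14. The pooled within-group SD of the library medians was 0.0994. With libraries centred on their median 71 of the 84 were lower, and with quantile normalization 56. No member without -ps was higher at an unadjusted p under 0.05, and 1 was lower, where 3.67% of all genes were higher and 3.24% lower. Of the 45 copies 25 were lower, with a median of -0.27, and beside Rpl3-ps1 the identical copy Rps16-ps2 was lower at p under 0.05 (-0.50, SE 0.23, limma adjusted p = 0.69, and -0.75 without REST cKO sham replicate 6). Over the alternatives 0 to 1 of the 84 were higher and 0 to 5 lower at that p.

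**Figure D2:**
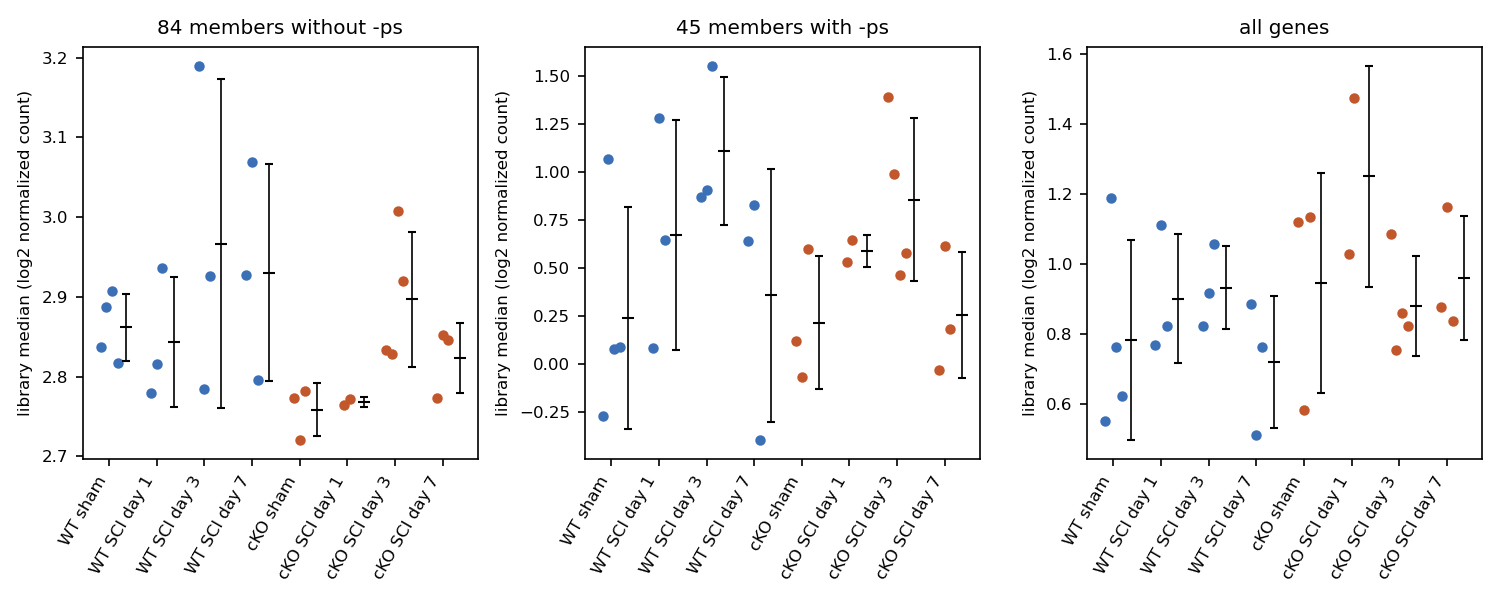
Median log2 normalized count per library (points, y axis, by group on the x axis, WT in blue and REST cKO in orange, with bars at the group mean ± SD) of the members without -ps, of the members with -ps and of all genes. The medians of the members without -ps run from 2.72 to 3.19 over the 25 libraries, and the 3 REST cKO sham libraries (2.72 to 2.78) lie below the 4 WT sham libraries (2.82 to 2.91).

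The member lower between sham groups was Rpl30, a large subunit protein. It stood at 3.79, 3.87, 3.83 and 3.80 in WT sham and at 3.46, 3.47 and 3.39 in REST cKO sham, with no overlap and a fitted difference of -0.40 (SE 0.17, limma adjusted p = 0.63). Sham groups without overlap were found for 2 of the 84 in the higher and 8 in the lower direction, beside 399 and 382 of all 9931 genes. After injury the REST cKO values of Rpl30 were 4.22 and 3.99 at day 1, 3.86, 4.13, 3.93 and 3.92 at day 3, and 3.67, 4.23 and 3.85 at day 7. All 9 lay above the 3 REST cKO sham libraries. Rpl30 differed from REST cKO sham by 0.67 at day 1 (SE 0.17, limma adjusted p = 0.70), 0.54 at day 3 (SE 0.16, adjusted p = 0.76) and 0.50 at day 7 (SE 0.16, adjusted p = 0.84, and 0.25 without REST cKO SCI day 7 replicate 13), and none of these passed the adjusted threshold. In WT it stood at 3.96, 3.60 and 3.82 at day 1, 4.42, 3.80 and 4.17 at day 3, and 3.92, 3.85 and 3.48 at day 7, and every one of these groups reached into the range of WT sham or below it.

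At day 1 after SCI, REST cKO against WT, 2 of the 84 were higher and 2 lower at p under 0.05 (2.81% and 0.997% of all genes) and 0% of all genes were called. The median of the 84 was 0.04, against 0.19 for all genes, and -0.15 with libraries centred on their median, -0.04 with quantile normalization and -0.008 with a term for batch. With centring the median of all genes was at 0.00 here, -0.08 in place of 0.23 at day 7 between genotypes and -0.06 in place of 0.29 at day 1 in REST cKO, so medians of members are read beside that of all genes. The higher members included the acidic stalk protein Rplp1 (0.43, SE 0.18). The lower members were Rpl24 (-1.12, SE 0.47) and Rpl35 (-0.49, SE 0.22), both of the large subunit. The Rpl24 difference rests on 1 of the 2 REST cKO libraries, at -0.38 without REST cKO SCI day 1 replicate 19 and -1.69 without replicate 25. Over the alternatives 0 to 5 of the 84 were higher and 0 to 3 lower at p under 0.05. Among the copies Rps15a-ps5 had the largest difference, 4.27 (SE 1.14, limma adjusted p = 1.00), with -1.88, -0.41 and 0.84 in WT and 3.11 and 2.70 in REST cKO.

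At day 3, REST cKO against WT, 3 of the 84 were higher and 6 lower at p under 0.05 (3.81% and 2.57% of all genes), 0% of all genes were called and the median was -0.07 with 51 members below 0. The largest difference among the lower members was that of Rpl5, which carries 5S ribosomal RNA into the large subunit and with Rpl11 binds the p53 regulator Mdm2. Rpl5 stood at 2.91, 2.89 and 3.55 in WT and at 0.34, 1.80, 0.78 and 0.19 in REST cKO, with no overlap (-2.98, SE 0.87, limma adjusted p = 0.65). Here 4 of the 84 were higher and 10 lower without overlap, beside 358 and 396 of all 9931 genes. The values of 140 genes, Rpl5 the only member among them, still correlated with a sequencing component (absolute r over 1e-05). Rpl27a (-0.78), Rpl28 (-0.76), Rps26 (-0.46), Rplp1 (-0.44) and Rpl31 (-0.32) were the other lower members, and Rps27rt (3.05), Rpl7a (0.94) and Rps15 (0.69) the higher ones. Rplp1 stood at 3.78, 3.89 and 3.86 in WT and at 3.54, 3.26, 3.55 and 3.53 in REST cKO, also with no overlap (SE 0.14, limma adjusted p = 0.65). Its sign was the opposite at day 1, when 3.52, 3.24 and 3.55 in WT stood against 3.87 and 3.65. Of the copies Rpl17-ps10 was higher (3.60, and 2.40 without WT SCI day 3 replicate 16) and Rps19-ps6 lower (-2.39). Over the alternatives 1 to 5 of the 84 were higher and 3 to 10 lower at p under 0.05.

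At day 7, REST cKO against WT, 1 of the 84 was higher and 6 were lower at p under 0.05, where 7.73% of all genes were higher and 2.22% lower, and 0% were called. The median of the 84 was -0.09 with 49 below 0, and that of all genes 0.23. With libraries centred on their median it was -0.39 with 72 below 0, and that of all genes -0.08. Over the alternatives 0 to 15 of the 84 were lower at p under 0.05, 0 without the trend and 15 with centring. The lower members included Rps15 (-0.72), Rps13 (-0.69), Rpl37a (-0.66), Rpl35 (-0.38) and Rpl13a (-0.36), and the higher one was Rpl14 (0.99, SE 0.42), which was at 0.55 without WT SCI day 7 replicate 4 and 1.59 without replicate 7. Adjusted p-values (limma) of the members named were 0.35 to 0.47. The copies Rpl15-ps3 (-3.40, SE 1.13) and Rpl17-ps9 (-2.59, SE 1.17) were lower at p under 0.05, and Rpl15-ps3 stood at 2.57, 2.65 and 4.13 in WT and at -2.85, -0.22 and 2.64 in REST cKO, where 1 library reached the WT range. Without REST cKO SCI day 7 replicate 2 the Rpl15-ps3 difference was -2.0. The genotypes at day 7 are from different sexes, all female in WT and all male in REST cKO, and the median of the 84 was 0.02 with a term for sex.

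In WT, day 1 against sham, no member without -ps reached p under 0.05 in either direction (0 to 1 higher and 0 to 3 lower over the alternatives, 3 without WT SCI day 1 replicate 11), where 3.92% of all genes were higher and 2.52% lower and 0% were called. The median of the 84 was -0.06 with 51 below 0, and 75 were below 0 with libraries centred on their median. Of the copies Rpl17-ps10 (3.45) and Rpl10-ps3 (2.73) were higher and Rps26-ps1 (-3.17), Rpl28-ps1 (-2.13), Rpl10a-ps1 (-1.22) and Rps12-ps3 (-1.13) lower at p under 0.05, none past the adjusted threshold.

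At day 3 in WT, 7 of the 84 were higher than in sham and 1 was lower at p under 0.05 (3.64% and 3.26% of all genes, 0.0101% called). The 7 were all of the large subunit, Rpl5 (2.89, SE 0.91), Rpl28 (0.90), Rpl27a (0.81), Rpl35a (0.42), Rpl38 (0.42), Rpl37 (0.41) and Rpl36a (0.41), with adjusted p of 0.60 to 0.66. Rpl35a stood at 3.19, 3.60, 3.46 and 3.41 in sham and at 3.77, 3.84 and 3.73 at day 3, with no overlap. Without overlap 15 of the 84 were higher and 1 lower, beside 395 and 254 of all 9931 genes. The median of the 84 was 0.07 with 32 below 0, and -0.06 with quantile normalization. The lower one was Rps27rt, an intronless relative of Rps27 on chromosome 9, at 2.31, 2.48, 2.01 and 2.29 in sham and -2.09, -1.18 and 0.18 at day 3 (-3.95, SE 1.54, limma adjusted p = 0.63). The group includes replicate 5, the library with the most low values. The copies Rpl17-ps9 (2.68) and Rpl10-ps3 (2.55, and 1.41 without WT sham replicate 3) were higher. Over the alternatives 2 to 11 of the 84 were higher and 1 to 3 lower, with 11 higher without WT SCI day 3 replicate 16 and 3 lower without replicate 5. At day 7 in WT no member of either set reached p under 0.05 (0 to 2 of the 84 higher and 0 to 3 lower over the alternatives, 3 without WT SCI day 7 replicate 7), where 2.16% of all genes were higher and 4.72% lower and 0% called, and the median of the 84 was 0.03 against -0.12 for all genes.

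In REST cKO, day 1 against sham, 7 of the 84 were higher and 1 lower at p under 0.05 (4.27% and 1.02% of all genes, 0% called). Beside Rpl30 the higher ones included Rps25 (0.72), Rpl36al (0.52), Rplp1 (0.41), Rps27 (0.39) and Rpl35a (0.32), and the lower one was Rpl35 (-0.48, at -0.20 without REST cKO SCI day 1 replicate 25 and -0.75 without replicate 19). The median of the 84 was 0.09 with 34 below 0, against 0.29 for all genes, and -0.25 with 62 below 0 when libraries were centred on their median, with -0.06 for all genes. Over the alternatives 0 to 10 of the 84 were higher and 0 to 4 lower, 0 and 4 with centring. The copies Rpl31-ps8 (4.01), Rps15a-ps5 (2.38) and Rpl3-ps1 were higher and Rpl17-ps9 lower (-2.78, at -1.56 without REST cKO SCI day 1 replicate 19 and -1.80 without REST cKO sham replicate 23). The day 1 group holds 2 libraries, and all adjusted p-values of these members were 0.70 or more (limma).

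At day 3 in REST cKO, 69 of the 84 were above sham, with a median of 0.20 against 0.03 for all genes, and 5 were higher and 0 lower at p under 0.05 (2.92% and 1.73% of all genes). The library medians of the 84 were 2.83 to 3.01 at day 3 and 2.72 to 2.78 in sham, with no overlap, and the difference was 0.06, 0.20 and 0.14 within batches 1, 2 and 3. The 5 members were Rps27a (0.54), which is made as a fusion to ubiquitin, Rpl30, Rps3 (0.46), a small subunit protein at the mRNA entry that also has DNA repair activity, Rps29 (0.39) and Rps27 (0.33, and 0.15 without REST cKO sham replicate 6). Over the alternatives 0 to 8 of the 84 were higher and 0 to 2 lower. Rps27a stood at 2.93, 3.12 and 3.01 in sham and at 3.31, 3.43, 3.59 and 3.30 at day 3, with no overlap (limma adjusted p = 0.90). Without overlap 10 of the 84 were higher and 1 lower, beside 378 and 286 of all 9931 genes. Beside Rpl3-ps1, Rpl31-ps8 (4.19), Rps18-ps1 (2.64), Rps16-ps2 (0.49) and Rpl39-ps (0.44) were the copies higher at p under 0.05. Rpl31-ps8, the identical copy shown above, stood at -3.26, -0.85 and -1.40 in sham and at 2.50, 2.12, -1.52 and 2.65 at day 3, where 1 library lay within the sham range. Rps18-ps1, at 98.3% identity to Rps18, stood at -2.88, -1.78 and -2.27 in sham and at 0.55, -2.06, 0.46 and -1.04 at day 3, again with 1 library in the sham range. Of the 45 copies 27 were above sham, with a median of 0.18. The summed neuronal markers were at 4.88 to 5.38 in sham and 4.55 to 4.68 at day 3, with no overlap, and those of excitatory and corticospinal neurons at 2.92 to 3.14 and 1.87 to 2.90. Astrocyte sums were at 3.50 to 4.30 and 3.12 to 4.01, microglial sums at 5.36 to 5.92 and 5.77 to 5.96, inhibitory neuron sums at 0.81 to 2.99 and 1.13 to 1.37, oligodendrocyte sums at 2.76 to 3.32 and 2.60 to 3.07, and endothelial sums at 4.30 to 4.98 and 4.48 to 5.09. Their part in this difference was not tested. The comparison shares its sham libraries with the sham comparison of genotypes.

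At day 7 in REST cKO, 5 of the 84 were higher than in sham and 0 lower at p under 0.05 (3.54% and 2.12% of all genes, 0% called), namely Rpl14 (1.20), Rpl39 (0.96), Rpl30, Rps27a (0.49) and Rps3 (0.48). The median of the 84 was 0.03 with 35 below 0, -0.10 with 50 below 0 when libraries were centred on their median, and -0.06 with quantile normalization. Rpl14 stood at 2.07, 2.15 and 2.50 in sham and at 2.77, 3.41 and 3.30 at day 7, with no overlap (SE 0.45, limma adjusted p = 0.84). Rps3 stood at 2.85, 2.67 and 2.60 in sham and at 3.21, 3.24 and 2.86 at day 7, with no overlap either. Without overlap 6 of the 84 were higher and 4 lower, beside 585 and 478 of all 9931 genes. Of the copies Rpl31-ps8 (4.12), Rpl3-ps1 and Rps18-ps1 (3.04) were higher and Rpl36a-ps2 (-3.93), Rpl17-ps9 (-3.73) and Rpl15-ps3 (-3.04) lower. Without REST cKO sham replicate 6 the Rpl36a-ps2 difference was -2.17 and that of Rps3 0.72. Over the alternatives 1 to 7 of the 84 were higher and 0 to 1 lower.

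For the interaction of genotype and injury, 0% of all genes were called at day 3, where 2.89% were higher and 2.26% lower at p under 0.05, and 0.0201% at day 7, where 4.3% were higher and 2.05% lower. No member was called. At day 3 Rps27a (0.68, SE 0.29) was higher and Rpl5 (-3.52, SE 1.42) lower among the 84, and at day 7 Rpl14 (1.71, SE 0.63), Rps27a (0.60) and Rpl30 (0.57) were higher. Of the copies Rpl3-ps1 and Rps18-ps1 (4.06 at day 3, 4.35 at day 7) were higher on both days at p under 0.05, Rpl39-ps (0.59) at day 3, and Rpl15-ps3 (-5.14) was lower at day 7. The Rpl5 value at day 3 rests on REST cKO sham replicate 6, without which it was -1.20. That of Rpl39-ps was 0.34 without WT SCI day 3 replicate 16, and that of Rpl30 at day 7 was 0.29 without REST cKO SCI day 7 replicate 13. Over the alternatives 0 to 2 of the 84 were higher and 0 to 3 lower at day 3, and 1 to 4 and 0 to 1 at day 7.

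**Figure D3:**
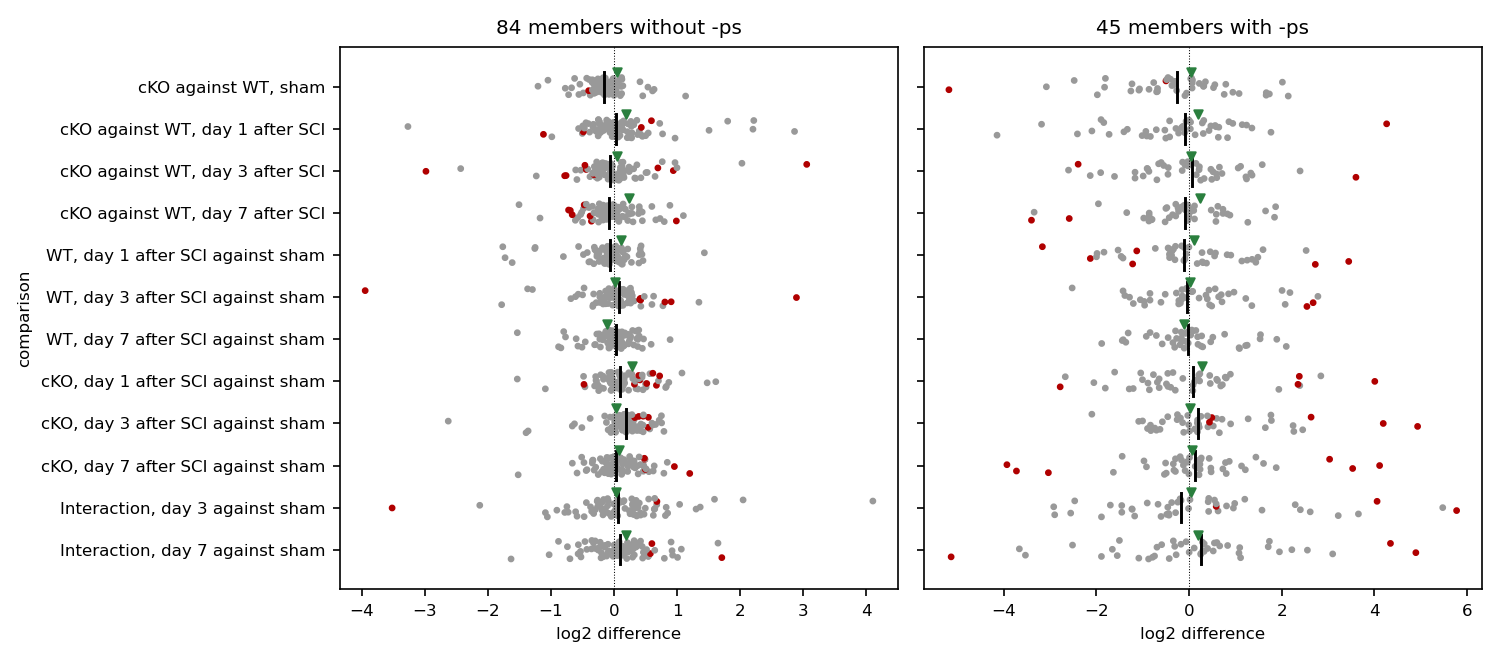
Fitted log2 differences of the members without -ps (left) and with -ps (right), x axis, in each of the 12 comparisons, y axis. Each point is a member (red at p under 0.05), the black line is the members' median and the green triangle the median of all genes. The members without -ps centre on medians between -0.16 and 0.20, and the members with -ps are spread more widely, from -5.19 to 5.78, the sham difference and the day 3 interaction of Rpl3-ps1.

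By role, the stalk proteins that recruit translation factors to the large subunit stayed within narrow ranges. Rplp0 ran from 2.59 to 3.30 over the 25 libraries, Rplp1 from 3.16 to 3.89 and Rplp2 from 3.10 to 3.89, and only Rplp1 reached p under 0.05 in any comparison. Rpsa, which also serves as the laminin receptor, ran from 0.97 to 3.01 and Rps4x, the X-linked copy of the small subunit protein S4, from 2.74 to 3.56, and neither reached p under 0.05 in any comparison. Rpl11, the partner of Rpl5, ran from 2.66 to 3.37 with fitted differences of -0.08 to 0.30, where those of Rpl5 ran from -3.52 to 2.89.

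Of the paralogue pairs, Rpl22 ran from 2.31 to 3.24 and its paralogue Rpl22l1, which can take its place in the ribosome, from 0.39 to 2.79. Rps27 ran from 3.35 to 4.11 and Rps27l from 1.18 to 3.52, Rpl36a from 2.86 to 3.73 and its paralogue Rpl36al from 2.91 to 3.83, and Rpl7 from 2.92 to 3.75 and Rpl7l1 from -0.35 to 1.90. In none of the 4 pairs was either gene called in a comparison. Levels within a pair were not compared. Rpl39 ran from 0.92 to 2.96. Rpl39l and Rpl3l were not in the table analysed here.

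The spread between libraries separated the 2 sets of members. The residual standard deviation (SD) of the fit had a median of 0.28 in the 84 and 1.28 in the 45 copies, against 1.16 for all genes and 0.41 for the 1104 genes with a mean value of at least 2. It exceeded 1 in 9 of the 84 (10.7%), in 29 of the 45 (64.4%) and in 57.9% of all genes. The members without -ps with the smallest SD included Rpl35a (0.13) and Rpl4 (0.15), and the 3 with the largest were Rps12 (2.91), Rps27rt (2.19) and Rps6 (1.64). The SD of Rps12 was the largest of all 9931 genes. Most copies varied widely. The 22 copies under 99% identity had mean values of up to 0.96 (Rpl21-ps8), except Rps25-ps1, which stood at 2.75 and ran from 2.08 to 3.21. They included Rpl31-ps1, Rps18-ps1, Rpl31-ps24, Rpl5-ps1, Rpl17-ps1, Rpl12-ps1, Rpl13-ps1, Rps12-ps10, Rps19-ps6, Rpl31-ps15, Rpl13a-ps1, Rpl30-ps3, Rpl5-ps2, Rpl31-ps17, Rpl7-ps7, Rps15a-ps6, Rps15a-ps5, Rpl21-ps8 and Rps25-ps1. The largest SD among them was that of Rps15a-ps6 (-3.24 to 3.07, SD 2.36). Rpl13-ps1 aligned to Rpl13 on the opposite strand, with a longest identical run of 96 bases. On the same strand Rpl13-ps1 shares no stretch of 50 bases with Rpl13.

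The 11 identical copies had means from 0.52 to 3.52. Rpl36a-ps2, inside an intron of Ddah1 on the same strand, swung from -3.84 to 3.67 (SD 2.55), Rpl31-ps8 from -3.26 to 3.66, Rpl28-ps1 from -2.70 to 3.49 and Rpl15-ps3 from -2.85 to 4.13. Rpl10a-ps1 ran from 0.58 to 3.62. In contrast Rps16-ps2 (2.25 to 3.41), Rps6-ps4, Rps23-ps1 and Rpl27-ps3 had SDs of 0.12 to 0.26. Of the 12 copies of at least 99%, Rpl39-ps was the steadiest (3.00 to 3.65, SD 0.18), while Rpl23a-ps3, Rps13-ps1 and Rpl17-ps10 had SDs of 2.83, 2.36 and 2.32. Identical copies thus included members at both ends of the range of spread. Among the copies Rpl27-ps3, identical to its parent, had an SD of 0.12, lower than all but 0.03% of all genes, and ran from 3.01 to 3.47.

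**Figure D4:**
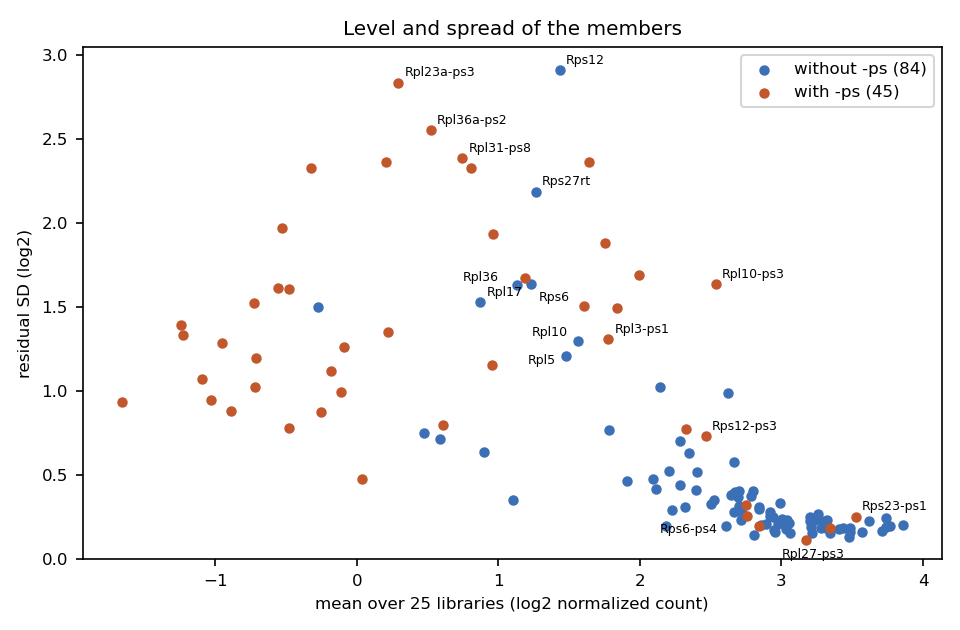
Residual SD against mean log2 normalized count over the 25 libraries for each of the 129 members, members without -ps in blue and with -ps in orange. The SD is under 0.5 in 65 of the 84 members without -ps and in 7 of the 45 with it, and Rps12 stands at a mean of 1.43 with an SD of 2.91.

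The members without -ps that varied most were ones that share sequence with another row of the set. Of the 84, 36 share at least 1 stretch of 50 bases on the same strand with another member. In 8 of these 36 (22.2%) the SD was over 1, namely Rpl5, Rpl10, Rpl17, Rpl36, Rpl37rt, Rps6, Rps12 and Rps27rt. Of the 48 that share none, 1 (2.08%) had, Rps4l, which GENCODE lists as a transcribed processed pseudogene. The median SD was 0.37 in the 36 and 0.23 in the 48.

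Rps12 was high in some libraries and low in others. It stood at 3.32, 3.53, 3.53 and -1.79 in WT sham, at 2.87, 3.83 and 2.94 in WT day 1, at 3.18, 1.33 and 1.12 in WT day 3, and at 4.11, -2.77 and 3.24 in WT day 7. In REST cKO it stood at 3.43, 1.27 and 1.56 in sham, 4.26 and -3.40 at day 1, -2.55, -1.42, -1.98 and 2.93 at day 3, and -3.0, 3.53 and 2.75 at day 7. Low values occurred in both genotypes and at all times, 7 libraries lying at -3.40 to -1.42 and 18 at 1.12 to 4.26, and no comparison of Rps12 reached p under 0.05. Its identical copy Rps12-ps3 stood at 0.77 to 3.69 in all 25 libraries and at 3.55 in the WT sham library in which Rps12 was at -1.79. Because the libraries fall into these 2 sets, no correlation over all 25 is given. Within the 7 the values of Rps12 and Rps12-ps3 had r = -0.41 and rho = -0.18 (exact permutation p = 0.35 and 0.71), and within the 18 r = -0.02 and rho = -0.23 (permutation p = 0.96 and 0.36), over a range of Rps12 that the division itself narrows.

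Rps6, the small subunit protein phosphorylated downstream of mTOR, showed the same kind of spread. Its sham values were 1.47, 1.73, 1.87 and 2.02 in WT and 1.15, 2.54 and -0.41 in REST cKO. At day 1 it stood at -3.24, 1.68 and 2.40 in WT and 2.24 and 2.25 in REST cKO, at day 3 at 2.36, -0.88 and -0.45 and at 2.11, -0.94, 1.49 and 2.80, and at day 7 at 1.85, 2.03 and 2.36 and at 1.59, -0.76 and 1.42. Its identical copy Rps6-ps4 ran only from 2.45 to 3.26.

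Rpl10, an X-linked large subunit protein that joins late in assembly, lay at 2.86, 1.89, -0.23 and 1.91 in WT sham and 2.20, 2.24 and 2.76 in REST cKO sham, and ran from -2.27 to 2.86 over all libraries. Rpl10-ps3 is an autosomal intronless copy that GENCODE lists as protein coding, with no mismatch over 740 aligned bases. It lay at -3.08, 2.81, 2.96 and 0.40 in WT sham and at 2.39, 2.98 and 2.45 in REST cKO sham. In the remaining 18 libraries it ran from 2.07 to 4.11, except for -1.38 in 1 WT day 7 library, where Rpl10 was at 2.42.

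To see whether parent and copy varied together, the group means were subtracted and the 25 residual values of each of the 45 pairs correlated, with permutation p-values adjusted by Benjamini-Hochberg over the 45. Of the 45, 27 pairs had a positive and 18 a negative r, with a median of 0.10. The median r was -0.24 in the 11 identical pairs, -0.03 in the 12 of at least 99% and 0.16 in the 22 under 99%. The pairs share libraries, and those of 1 parent share its values. The identical pairs included Rpl15-ps3 (r = -0.45, permutation adjusted p = 0.14), Rpl10a-ps1 (0.33, adjusted p = 0.25) and Rpl27-ps3 (0.03, adjusted p = 0.92). The adjusted p was under 0.1 in 6 pairs, 4 negative and 2 positive, and the 4 negative ones were all at least 99% identical. With libraries centred on their median 8 pairs passed, 2 negative and 6 positive. Of the 4 negative pairs those of Rpl23a and Rpl10 kept their call in that setting and those of Rps12 and Rps23 lost it.

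Rpl23a and Rpl23a-ps3 had r = -0.67 and rho = -0.63 (permutation p = 0.00023 and 0.00099, adjusted p = 0.0052 and 0.040), with r = -0.63 without the 2 libraries farthest from the median, and -0.75 and -0.55 within batches 1 and 2. Rpl23a stood at 1.98, 3.42, 1.52 and 3.55 in the WT sham libraries and Rpl23a-ps3 at 2.97, -3.16, 1.92 and -0.54, so that the copy was high where the parent was low. In WT day 1 they stood at 0.82, 2.84 and 3.79 and at 4.26, 1.89 and -2.53.

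Rps23, a small subunit protein of the decoding centre, and the identical Rps23-ps1 had r = -0.62 and rho = -0.45 (permutation p = 0.00072 and 0.025, adjusted p = 0.011 and 0.14), with r = -0.58 without the 2 farthest libraries and -0.54 and -0.60 within batches 1 and 2. Over the 25 libraries Rps23 ran from 2.23 to 3.55 and Rps23-ps1 from 2.87 to 4.07, and the library with the highest Rps23 of the REST cKO sham group (3.55) had the lowest Rps23-ps1 of that group (3.00). Rpl10 and Rpl10-ps3 had r = -0.54 and rho = -0.59 (permutation p = 0.0096 and 0.0025, adjusted p = 0.072 and 0.040), -0.52 without the 2 farthest libraries, and -0.45 and -0.62 within batches 1 and 2. With libraries centred on their median Rps23 and Rps23-ps1 had r = -0.01 (permutation adjusted p = 0.98), Rpl23a and Rpl23a-ps3 -0.60 (adjusted p = 0.022) and Rpl10 and Rpl10-ps3 -0.56 (adjusted p = 0.049). The Rpl10 pair had r = -0.45 without subtraction of group means (adjusted p = 0.19). The other negative pair was Rps12 with Rps12-ps3, for which the libraries fall into the 2 sets given above and the call over all 25 is not read as a relation. Batch 3 holds 5 libraries, too few for a value.

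**Figure D5:**
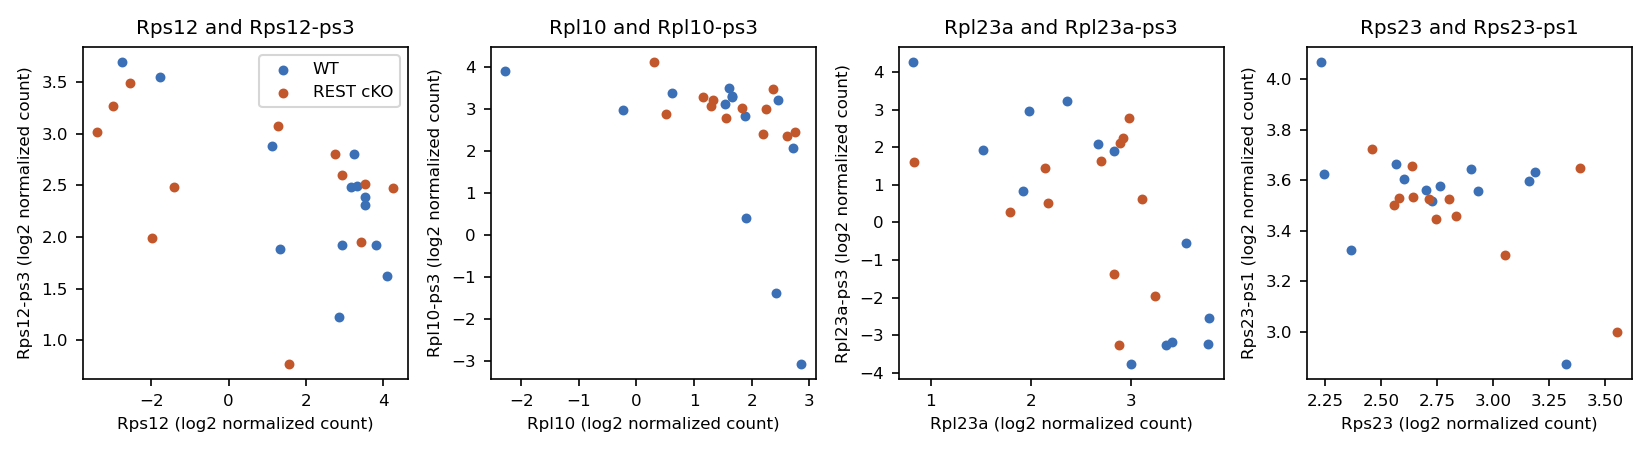
Log2 normalized count of a parent (x axis) and of its -ps copy (y axis) in each of the 25 libraries, a point per library (WT blue, REST cKO orange), for Rps12, Rpl10, Rpl23a and Rps23. Rpl23a was under 1 only in WT SCI day 1 replicate 1 and REST cKO sham replicate 23, where Rpl23a-ps3 was at 4.26 and 1.62. Rpl23a-ps3 was also at 1.62 in REST cKO SCI day 1 replicate 19, where Rpl23a was at 2.70. For Rps12 the libraries form a set at -3.40 to -1.42 and another at 1.12 to 4.26.

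Of the 2 positive pairs, Rpl17 with Rpl17-ps9 had r = 0.53 and rho = 0.40 (permutation p = 0.0062 and 0.047, adjusted p = 0.070 and 0.19). Without the 2 farthest libraries r was 0.27, so the relation rests on those libraries. Within batches 1 and 2 it was 0.61 and 0.56. On the values without subtraction of group means neither positive pair passed the threshold.

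When each parent was added to its copies on the linear scale, the within-group SD exceeded 1 in none of the 33 sums, whereas it had in 6 of the 33 parents. That of Rps12 went from 2.75 to 0.61, of Rps6 from 1.55 to 0.37, of Rpl10 from 1.23 to 0.35 and of Rps23 from 0.36 to 0.13. The sum had a smaller SD than the parent in 15 of the 33 families, and a sum follows its larger row whatever the smaller one does. The deposited values had been corrected before they were added, so the sums are not read totals.

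Other parts of the translation machinery were called in no comparison either. Between sham groups the 63 mitochondrial ribosomal protein genes had a median difference of 0.14 with 35 above 0, the 51 initiation factors 0.07 with 29 above 0, the 7 measured elongation factors -0.22 with 6 below 0, the 24 measured ribosome assembly factors 0.35 with 16 above 0, and 19 other messages with a 5′ pyrimidine tract -0.20 with 14 below 0, against 0.04 for all genes. At p under 0.05, 2 mitochondrial genes were higher and 1 lower, 2 assembly factors were lower and 1 of the 19 was lower. The shares of all genes were 3.67% higher and 3.24% lower. Between day 3 and sham in REST cKO, where the 84 had a median of 0.20, the medians of the 5 lists were -0.17, -0.18, 0.23, -0.19 and 0.16 in the same order. Of the 19 messages 3 are also in the elongation, 4 in the initiation and 1 in the assembly list. The elongation factors and the 19 have the sign of the ribosomal protein genes in both comparisons.

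Promoter sequences from RefSeq (GRCm38.p6) were matched for 63 of the 84 members and for none of the 45 copies. Short pyrimidine tracts were searched on the sense strand within 20 bases of the start. CTTTCC was present in 17.5% of the 63, against 2.37% of the 7748 genes of the table with a promoter. The shares were 14.3% and 1.94% for CTCTTT, 12.7% and 2.14% for CCTTTC, and 7.94% and 1.63% for CTTTTC, and these 4 can overlap. At least 1 of the 4 was in 22 of the 63 (34.9%), against 6.49% of the genes of the table and 6.4% of all 27025 promoters. Of the REST motif, the part TTCAGCACC on either strand between 250 bases before and 50 after the start was in 0 of the 63, 0.465% of the genes of the table and 0.433% of all promoters, and the shorter part GGACAG in 25.4%, 26.5% and 24.7%. No match says only that these letters are not in this window. The stretches from 10 bases before the start of Rplp0, of Rpl10 and of 1 of the 3 starts of Rpl35a hold none of the 4 tracts. The stretch around the start of Rps12, from 10 bases before it (chr10:23787190-23787219, minus), holds the tract in capitals.
Rps12 start: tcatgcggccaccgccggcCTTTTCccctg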

How the data were processed

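The authors aligned QuantSeq reads to mm10 (GRCm38) with STAR and quantified transcripts with Salmon, whose versions are not given in the sources used here. They imported the counts with tximport, scaled them by the geometric-mean method of DESeq2, dropped genes without counts in over 50% of samples, removed unwanted variation (RUV) and regressed out 2 principal components of sequencing and alignment measures. The deposited values are log2 normalized counts of 25 libraries and keep no depth, so no counting interval was given. How reads matching several places were shared between parents and copies is set by Salmon's estimate and cannot be undone here. Columns with the authors' own fold changes, p-values and adjusted p-values were not used.

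Of 9955 rows, 24 had no symbol and were left out. Group means and the 2 components were fitted to the other 9931 with limma 3.58.1 in R 4.3.3 (empirical Bayes with a trend, 15 residual degrees of freedom), as 12 contrasts, each with Benjamini-Hochberg adjustment over all genes and a threshold of 0.1. Differences are on the log2 scale of the deposited values with no added pseudocount. Parent and copy were compared after subtracting group means, with 100000 permutations, two-sided. Copies were aligned to parents with Biopython 1.88, and shared stretches of 50 bases were counted on the same strand. The fit and the correlation were tested on simulated data. Python 3.11.15, numpy 2.4.6, scipy 1.17.1, pandas 2.3.3 and matplotlib 3.10.9 were used.

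Genes named are those called, those with the largest differences per contrast at p under 0.05, a set chosen for their roles, the copies, and the 3 with the largest and smallest spread. Some members are included in the counts but not reported here by name. The remaining members at p under 0.05 were named after their values were seen. Members and lists were chosen with earlier results of these data known. Alternatives left out the components, added a term for batch, sex or the share of low values, changed weights, filter, trend, scaling or threshold, fitted the compared groups alone, or left out each replicate.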

Additional observations from a re-analysis of the deposited data

Results flagged for a closer look

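Dixon's criterion, a gap to the nearest relative to the whole range at the 95% level, was applied to 52 sets of 4 values. These were members whose values are printed here and the library medians, in WT sham and in REST cKO SCI day 3. Some were named for large differences or spread, and a parent and its copy are not independent. Chance gives about 1 in 20 for unselected independent sets, so that rate is not compared with the count here. In 6 sets 1 library lay far from the other 3. Of these, 3 were in WT sham replicate 17. It had Rps12 at -1.79 against 3.32 to 3.53 in the other WT sham libraries, the copy Rps12-ps3 at 3.55 against 2.31 to 2.50, and Rps18-ps1 at -2.78 against -0.34 to 0.10. Rps27a stood at 3.32 in WT sham replicate 3 and at 3.08 to 3.11 in the other 3. In REST cKO at day 3, Rpl31-ps8 was at -1.52 in replicate 20 against 2.12 to 2.65, and Rplp1 at 3.26 in replicate 15 against 3.53 to 3.55. No interaction of genotype and injury passed the threshold for a member. The interaction at day 1, added after the data were seen, had its smallest p for Rplp1 (0.65, limma adjusted p = 0.71).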

How the results depend on the processing

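Of 488 alternative values for 25 results, 449 were close to the main value. A count was close when the number called was similar, and a median when it moved by less than 0.0994, the pooled SD. Direction was not part of this rule, so medians that turned sign and pair counts with other signs are among the 449. No called value changed sign. Between sham groups the count of called members went from 1 to 0 without the components, without the trend, at a threshold of 0.05, with the compared groups alone and with families summed (added after seeing the data), and was 0 to 1 when single replicates were left out (0 without any 1 WT sham library or REST cKO sham replicate 6). For day 3 against sham in REST cKO it went from 1 to 0 under the same settings and with a term for batch or sex, with genes of a mean of at least 0, with quantile normalization and without WT SCI day 3 replicate 5 (added after seeing the data), and was 0 to 1 over left-out replicates (0 without REST cKO sham replicate 6 or 18 or any 1 day 3 library). For day 7 against sham in REST cKO and the day 7 interaction the counts were 0 to 1, with Rpl3-ps1 called without REST cKO SCI day 7 replicate 13 (7.22 for the interaction, limma adjusted p = 0.068). Over all alternatives the Rpl3-ps1 sham difference was -5.62 to -3.89 (adjusted p = 0.040 to 0.56) and its day 3 difference in REST cKO 3.85 to 5.58 (adjusted p = 0.059 to 0.78).

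With libraries centred on their median, the median difference of the 84 members was -0.15 at day 1 and -0.39 at day 7 between genotypes, -0.28 and 0.15 at days 1 and 7 in WT, -0.25 and -0.10 at days 1 and 7 in REST cKO, and -0.15 for the day 7 interaction, so centring turned the sign of this median at day 1 between genotypes, at days 1 and 7 in REST cKO and for that interaction. Quantile normalization gave -0.055 at day 3 in WT, -0.052 at day 1 in REST cKO and -0.019 for the day 7 interaction, and a term for sex 0.016 at day 7 between genotypes. All 4 turned the sign. Quantile normalization also turned it at day 1 between genotypes (-0.038) and day 7 in REST cKO (-0.059), the term for sex for the day 3 interaction (-0.012), the term for batch at day 1 between genotypes (-0.0081) and the term for low values at day 7 in WT (-0.00046). Leaving out 1 library turned it at day 1 between genotypes (-0.042 when this was WT SCI day 1 replicate 8, -0.047 when it was replicate 25 of the injured REST cKO group at that time), at day 1 in WT (0.014 without replicate 8), at day 7 in WT (-0.040 to -0.0041 without WT sham replicate 14 or 17 or WT SCI day 7 replicate 4 or 7) and for the day 7 interaction (-0.00064 without REST cKO SCI day 7 replicate 13). The cause was not tested. The sham median was -0.22 to -0.12 throughout. Of the 45 pairs, 5 passed on the deposited values without subtracting group means, all negative, and 8 after centring, 2 negative and 6 positive, with the Rps12 and Rps23 pairs no longer called. No paired analysis was possible because replicate numbers were not shared between groups.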
